A study of Mus musculus with 6 samples.

Results

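The cone opsin genes Opn1sw and Opn1mw were examined in BMAL1 ChIP-seq data from mouse retina, by taking every listed peak whose summit lay inside either gene or within 50 kb on either side. These are 2 of 21887 protein-coding genes on the chromosomes, and their windows held 38 of the 320474 peaks that 6 libraries list. Per the labels, 3 Bmal1 CKO libraries came from retina of mice with a conditional knockout of the clock gene Bmal1 (strain C57BL/6), and they were compared with 3 Control libraries from wild-type retina of that strain. No treatment was given and pups were weaned at postnatal day 20. The labels do not state the age at collection, the time of day, the driver of the deletion or the cells in which Bmal1 was lost. ChIP-seq sequences the DNA that an antibody, here one against BMAL1 raised in rabbit, recovers from chromatin, so that places of recovery appear as peaks of reads. The lists hold no expression values, so neither the tissue nor the loss of Bmal1 can be checked in them.

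Opn1sw encodes the short-wavelength (S) cone opsin and Opn1mw the middle-wavelength (M) cone opsin, the light-absorbing proteins that set the wavelengths to which a cone responds. In mouse retina the opsins form opposing gradients, with M opsin more abundant in dorsal cones and S opsin in ventral cones, and many cones make both. Thyroid hormone, through the receptor encoded by Thrb, promotes M opsin and represses S opsin, and the orphan receptors of the ROR family are activators of Opn1sw. BMAL1 is a transcription factor that binds the E-box CACGTG together with CLOCK or NPAS2. The study's title ties Bmal1 to thyroid hormone and to the spectral identity of cones, and the question put to these lists was where antibody signal lay around the genes that define that identity.

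Most peaks came from a pair of long lists of opposite genotype. List names carry numbers other than those of the sample titles, so which library and genotype each list belongs to rests on the series record, and the lists cannot check it. Bmal1 CKO 2 listed 138254 peaks and Control 1 listed 179475, against 1444 in Bmal1 CKO 1, 519 in Bmal1 CKO 3, 410 in Control 2 and 372 in Control 3. The number of fragments stacked at each summit and the background expected there were recovered from the authors' values: their fold enrichment, taken as the stacked number plus 1 over the background plus 1, and their Poisson p-value. The q-value given below is the authors' p-value adjusted for the many places examined. The stacked number was whole (within 0.02) in 100% of peaks. The lowest background of a list, taken as its genome-wide level and so as a measure of depth, was 2.78 fragments per base in Bmal1 CKO 1, 5.83 in Bmal1 CKO 2, 0.560 in Bmal1 CKO 3, 3.46 in Control 1, 0.609 in Control 2 and 0.852 in Control 3.

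The promoters of the opsin genes are shown first, with that of the neighbouring gene Calu, because the strongest peak of the Opn1sw window lay at the Calu start and not at an opsin. The 250 bases before each annotated start come from RefSeq (assembly GRCm38.p6, the same chromosome sequences as mm10) and are written 5′ to 3′ on the strand of the gene. They are chr6:29380514-29380763 on the minus strand for Opn1sw, chrX:74127216-74127465 on the plus strand for Opn1mw and chr6:29347856-29348105 on the plus strand for Calu. In Opn1sw and Calu the capitals mark AGGTCA on either strand, the core motif of many nuclear receptors. In Opn1mw the capitals mark the bases inside the Bmal1 CKO 2 peak.
Opn1sw: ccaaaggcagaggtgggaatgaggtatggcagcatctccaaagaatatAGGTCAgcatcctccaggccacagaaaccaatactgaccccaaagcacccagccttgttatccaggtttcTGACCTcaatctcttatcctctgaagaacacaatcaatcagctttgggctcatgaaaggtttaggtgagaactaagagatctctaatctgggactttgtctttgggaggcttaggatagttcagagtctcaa
Opn1mw: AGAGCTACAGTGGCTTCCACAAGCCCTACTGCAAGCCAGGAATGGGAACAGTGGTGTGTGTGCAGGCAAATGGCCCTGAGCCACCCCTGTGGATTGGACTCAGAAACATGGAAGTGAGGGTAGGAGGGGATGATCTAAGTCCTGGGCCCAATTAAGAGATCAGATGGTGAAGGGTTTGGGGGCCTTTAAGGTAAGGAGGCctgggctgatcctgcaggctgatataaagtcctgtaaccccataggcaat
Calu: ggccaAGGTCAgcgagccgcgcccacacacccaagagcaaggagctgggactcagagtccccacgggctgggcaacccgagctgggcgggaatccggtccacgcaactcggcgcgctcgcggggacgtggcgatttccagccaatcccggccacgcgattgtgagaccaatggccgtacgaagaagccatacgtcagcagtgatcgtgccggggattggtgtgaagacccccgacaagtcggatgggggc

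None of the 3 sequences held CACGTG (the E-box), CACGTT (a variant of it) or TAATCC (bound by the photoreceptor factor CRX), searched on both strands. Among 21263 annotated starts of protein-coding genes, 6.63%, 3.90% and 5.82% held these motifs in the same 250 bases, so their absence is the usual state. AGGTCA was found at 2 places in Opn1sw, beginning 202 bases (plus strand of the gene) and 132 bases (minus strand) before the start. It was found at 1 place in Calu, beginning 245 bases before the start, and not in Opn1mw, against 12.8% of all promoters. A match is a string of letters and not a bound site. The opsin promoters shared a base composition that the choice of genes did not use, since neither held a CpG dinucleotide, against a median of 10 over all promoters and 25 in Calu. Of the 1406 promoters without a CpG, 14.4% had a summit within 1 kb of the start in Bmal1 CKO 2 and 17.0% in Control 1. Of the 13227 promoters with 6 or more CpG, 77.8% had one in Bmal1 CKO 2 and 89.5% in Control 1.

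Peaks around the opsin genes were listed in 1 library of each genotype, Bmal1 CKO 2 and Control 1. Around Opn1sw the libraries Bmal1 CKO 1 to 3 listed 0, 9 and 0 peaks, and Control 1 to 3 listed 11, 0 and 0. Around Opn1mw they listed 0, 8 and 0 in Bmal1 CKO 1 to 3, and 10, 0 and 0 in Control 1 to 3. In both genotypes 2 of 3 libraries were at 0, so the groups overlap. The mean was 3.00 ± 5.20 peaks in Bmal1 CKO and 3.67 ± 6.35 in Control libraries at Opn1sw (SD, n = 3 each), and 2.67 ± 4.62 in Bmal1 CKO and 3.33 ± 5.77 in Control libraries at Opn1mw (SD, n = 3 each). The difference, Bmal1 CKO minus Control, was −0.667 peaks at either gene, and the two-sided exact permutation test gave p = 1. The smallest p that this design allows is 0.10. With peaks in only 1 library of each genotype no smaller p than the one found was possible, so the test is uninformative here. The difference was smaller than the spread between replicates, and each mean rests on 1 library. The difference was 3.00 (Opn1sw) and 2.67 (Opn1mw) without Control 1, and −3.67 and −3.33 without Bmal1 CKO 2. It was 0.833 and 0.667 without Bmal1 CKO 1 or without Bmal1 CKO 3. Having a summit in such a window was also no distinction, as 97.6% of all protein-coding genes had one within 50 kb in Bmal1 CKO 2 and 97.9% in Control 1, against 4.47% in Bmal1 CKO 1, 2.52% in Bmal1 CKO 3, 1.88% in Control 2 and 1.83% in Control 3.

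**Figure D1:**
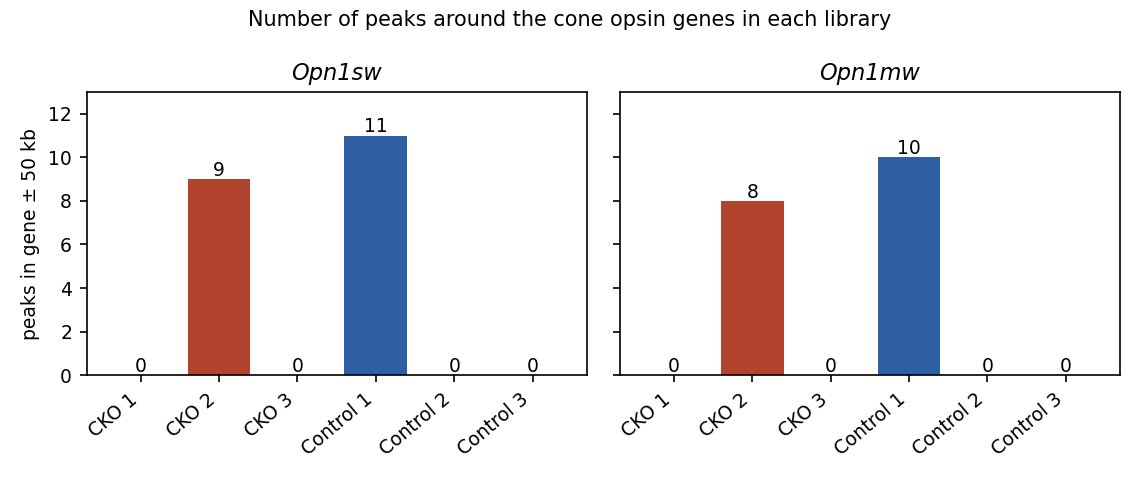
Bars give the number of peaks with a summit in the gene or within 50 kb, for each Bmal1 CKO (red) and Control (blue) library, at Opn1sw (left) and Opn1mw (right). Bmal1 CKO 2 and Control 1 list 8 to 11 peaks and the other 4 libraries list 0.

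Opn1sw itself carried no summit in any library. The gene (chromosome 6, 29376671 to 29380513, minus strand) is 3843 bp long. Among protein-coding genes of 3 to 5 kb, 43.1% had a summit inside in Bmal1 CKO 2 and 61.2% in Control 1, so that an empty gene of this size was common. Its start also had no peak within 1 kb, whereas 59.7% of the genes in the promoter table had one in Bmal1 CKO 2 and 69.2% in Control 1. At either end of a gene the share was 58.9% in Bmal1 CKO 2 and 69.5% in Control 1, and it was 0.315% in Bmal1 CKO 1, 0.105% in Bmal1 CKO 3, 0.0594% in Control 2 and 0.0594% in Control 3. The nearest summits lay beyond the 3′ end of Opn1sw, inside Calu, which encodes a calcium-binding protein of the secretory pathway and whose last 5 bases overlap the last bases of Opn1sw. In Bmal1 CKO 2 the nearest was at 29373741, 2.93 kb from the gene, with a fold enrichment of 2.66 from 22 fragments over a background of 7.64. In Control 1 it was at 29372378, 4.29 kb from the gene, with a fold of 4.53 from 21 fragments over 3.86. These summits were 1363 bp apart and the peaks shared no base, so neither recurred.

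Upstream of Opn1sw, Bmal1 CKO 2 alone listed peaks before the next gene. The first lay 6.47 kb upstream of the start (29386983; fold 2.60, 32 fragments over a background of 11.7). The second lay 8.22 kb upstream (29388730; fold 2.29, 27 fragments over 11.2), beside the transfer RNA gene n-TPagg6 (29388824 to 29388895). Control 1 listed none between the start of Opn1sw and 29396047, where its peak at the start of Ccdc136 begins. Within their own list these folds were low, with 18.9% and 4.15% of the Bmal1 CKO 2 peaks at or below them. No other library listed these peaks, so they have no replicate check.

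The strongest signal of the window was at the start of Calu, at the far end of that gene from Opn1sw. Bmal1 CKO 2 had a peak of 1139 bp there, with its summit on the annotated start base (29348106), a fold of 5.21 and 43 fragments over a background of 7.44. Control 1 had a peak of 1046 bp with its summit 121 bp before the start (29347985), a fold of 7.73 and 42 fragments over 4.56. These folds exceeded or equalled those of 98.9% of the peaks in Bmal1 CKO 2 and 99.6% in Control 1. The stacked fragments were nearly equal in number while the background was higher in Bmal1 CKO 2, the deeper library. A fold is relative to its own library and the difference in fold was not tested. Both peaks covered all 250 bases of the Calu promoter shown above.

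The remaining recurring peaks lay on the upstream side, at Ccdc136, a coiled-coil protein gene read away from Opn1sw. At its start Bmal1 CKO 2 had a narrow peak of 227 bp (summit 29396171, 404 bp before the nearest annotated start, fold 2.62), inside the range of a Control 1 peak of 956 bp (summit 29396502, fold 3.31). Within Ccdc136 the summits were 29402940 in Bmal1 CKO 2 (fold 2.67) and 29403023 in Control 1 (fold 3.76), 83 bp apart. The 6 peaks of Bmal1 CKO 2 with no counterpart had folds of 2.29 to 2.66, and the 8 such peaks of Control 1 had folds of 2.84 to 4.53. Of those of Control 1, the summit inside Calu at 29359603 had a fold of 4.35, from 19 fragments over 3.60. In the part of Fam71f1 that lies within 50 kb, Control 1 had a peak with a fold of 3.83 at 41.0 kb from Opn1sw and Bmal1 CKO 2 had none. Over the whole of that gene Bmal1 CKO 2 had 1 summit and Control 1 had 3.

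**Figure D2:**
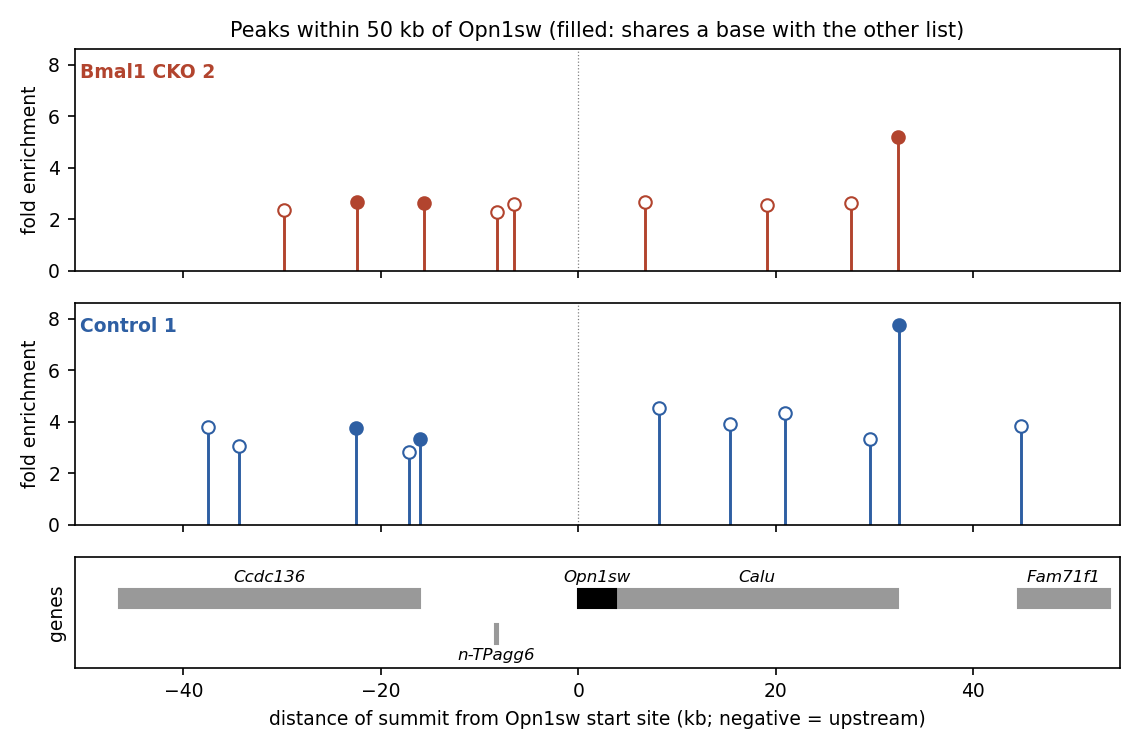
Fold enrichment at each summit (y axis, the authors' values) is plotted against distance from the Opn1sw start in kb, read along the gene's own strand, for Bmal1 CKO 2 (top, 9 peaks) and Control 1 (middle, 11 peaks), with annotated genes below, and filled points share a base with a peak of the other list. The highest point in each list is at the Calu start (5.21 in Bmal1 CKO 2 and 7.73 in Control 1), and no point falls on Opn1sw.

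Opn1mw differed from Opn1sw in having a promoter peak, in 1 library. The gene (chromosome X, 74127466 to 74150756, plus strand) is 23291 bp long. In Bmal1 CKO 2 a peak from 74127206 to 74127415 had its summit at 74127360, 106 bp before the start, and covered 200 of the 250 promoter bases, those in capitals above. Its fold was 2.78, from 18 fragments over the genome-wide background of 5.83, and 35.8% of the peaks of that list had a fold at or below it. Its −log10 q-value was 2.71, where the lowest in the list was 1.34. The nearest summit of Control 1 was 9477 bp away. Bmal1 CKO 1, Bmal1 CKO 3, Control 2 and Control 3 listed none either. The peak at the M opsin promoter was thus called in 1 of 3 Bmal1 CKO libraries and 0 of 3 Control libraries. Of all Bmal1 CKO 2 peaks with a fold under 3, 47.4% shared a base with a Control 1 peak, so lacking a counterpart was common. A summit within 1 kb of a start was listed for 59.7% of genes in the promoter table in Bmal1 CKO 2 and 69.2% in Control 1.

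Inside Opn1mw each long list had 1 peak, and these coincided. Bmal1 CKO 2 had a summit at 74136857 (fold 3.37, 22 fragments over 5.83) and Control 1 at 74136837 (fold 3.36, 14 fragments over 3.46), 20 bp apart and 9.39 kb and 9.37 kb after the start. The place lies just beyond Gm6758, a pseudogene within Opn1mw (74134759 to 74136254). Exon positions are not used here, so the peak is placed within the gene only. Among genes of 20 to 27 kb, 78.6% had a summit inside in Bmal1 CKO 2 and 88.2% in Control 1.

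Upstream of Opn1mw, in the intergenic stretch next to the gene, both long lists had a peak. The summits were 74115832 in Bmal1 CKO 2 (11.6 kb upstream; fold 3.37, 22 fragments) and 74115730 in Control 1 (11.7 kb upstream; fold 4.04, 17 fragments), 102 bp apart. Control 1 listed a further summit 11.3 kb upstream (fold 3.81) and another 24.9 kb upstream (fold 3.81), with no counterpart in Bmal1 CKO 2. In human a locus control region lies upstream of the M and L opsin genes, and no correspondence with these peaks was examined.

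On the downstream side, the testis-expressed gene Tex28 lies 153 bp from the end of Opn1mw and had no summit inside in any library. Beyond it, the strongest peaks of the window fell in Rpl3-ps2, a pseudogene of the ribosomal protein gene Rpl3 (74170627 to 74171935). The summits were 74171384 in Bmal1 CKO 2 (fold 4.68, 31 fragments over 5.83) and 74171383 in Control 1 (fold 6.95, 30 fragments over 3.46), 1 bp apart. A second pair in the same pseudogene had folds of 4.68 in Bmal1 CKO 2 and 4.15 in Control 1. Reads of a pseudogene can be shared with near-identical copies, so these pairs are uncertain, and sharing of reads was not tested. Rpl3 itself held a summit in both long lists, and the pseudogene Rpl3-ps1 held one in Control 1 but not in Bmal1 CKO 2. Of the 2548 pseudogenes of 1 to 2 kb, 35.7% held a summit in Bmal1 CKO 2 and 41.6% in Control 1. At the start of Tktl1, a transketolase-like gene, the summits lay 102 bp after the start in Bmal1 CKO 2 (fold 2.78) and 25 bp before it in Control 1 (fold 4.48).

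**Figure D3:**
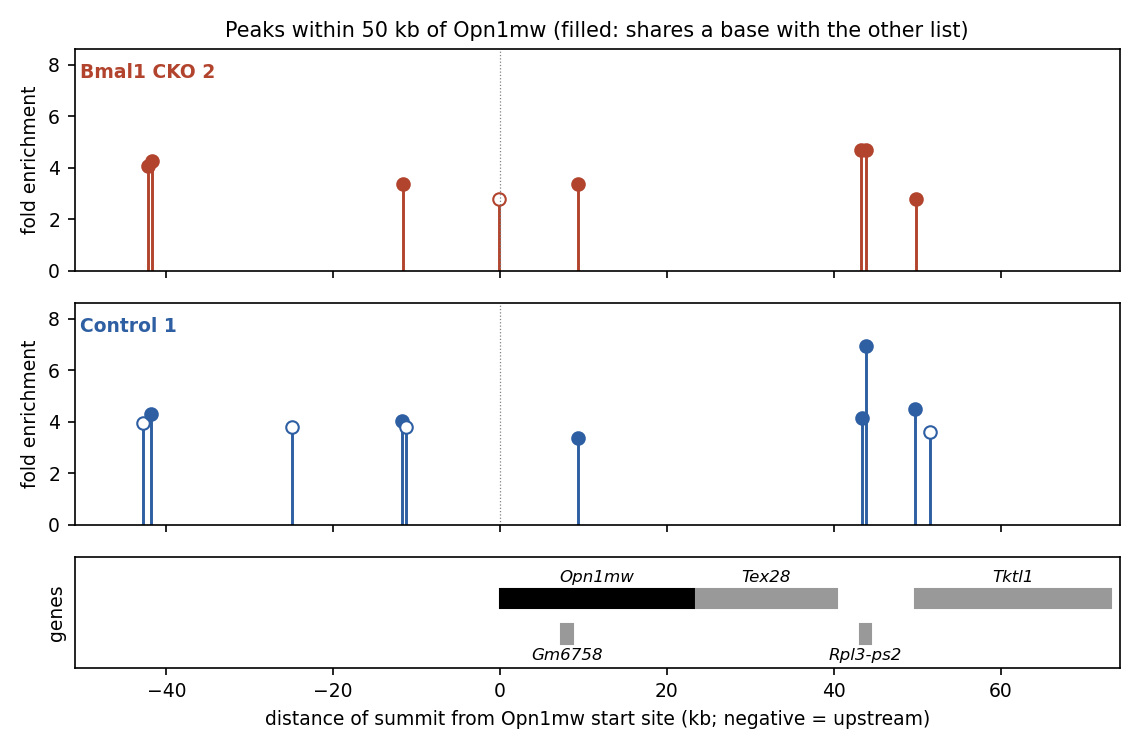
Fold enrichment at each summit is plotted against distance from the Opn1mw start in kb for Bmal1 CKO 2 (top, 8 peaks) and Control 1 (middle, 10 peaks), with some of the annotated genes below, and filled points share a base with a peak of the other list. The open point at the start in the top panel is the Bmal1 CKO 2 promoter peak (fold 2.78), and the highest points are in Rpl3-ps2 (4.68 in Bmal1 CKO 2 and 6.95 in Control 1).

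Recurrence between the long lists was counted over few peaks at each gene. Around Opn1sw 3 of 9 Bmal1 CKO 2 peaks shared at least 1 base with a Control 1 peak (33.3%, exact 95% binomial interval 7.49% to 70.1%), and 3 of 11 Control 1 peaks shared one with Bmal1 CKO 2 (27.3%, 6.02% to 61.0%). Around Opn1mw the counts were 7 of 8 in Bmal1 CKO 2 (87.5%, 47.3% to 99.7%) and 6 of 10 in Control 1 (60.0%, 26.2% to 87.8%). A pair of neighbouring Bmal1 CKO 2 peaks there shared bases with the same Control 1 peak. Another pair in each list lay in Rpl3-ps2, where reads can be shared with near-identical copies. Over the whole lists 54.1% of Bmal1 CKO 2 peaks and 40.7% of Control 1 peaks recurred, and all 4 intervals include these shares. The intervals treat peaks as independent and cover counting error only. Those of the opsin genes overlap each other, and the difference between the genes was not tested. By chromosome, 53.1% of Bmal1 CKO 2 peaks recurred on chromosome 6 and 59.1% on X, as did 40.3% and 41.2% of Control 1 peaks. Recurrence was more frequent at higher fold over the whole lists: 47.4% of Bmal1 CKO 2 peaks with a fold under 3 and 61.2% of those at 3 or more recurred, and likewise 21.3% and 46.4% of Control 1 peaks. In Bmal1 CKO 2, 1 of 9 peaks around Opn1sw and 6 of 8 around Opn1mw reached a fold of 3, as did 66907 of 138254 in the whole list. In Control 1, 10 of 11 around Opn1sw and 10 of 10 around Opn1mw reached it, as did 138891 of 179475 in the whole list. A relation between fold and recurrence at these genes was not tested.

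The windows also differed in the background against which their peaks were called. Around Opn1sw the background was 7.24 to 12.7 fragments per base in Bmal1 CKO 2 and 3.60 to 9.22 in Control 1, above the genome-wide level at every peak. Around Opn1mw it was at the genome-wide level in 6 of 8 peaks of Bmal1 CKO 2 and 7 of 10 of Control 1. Of all X peaks 71.0% were at that level in Bmal1 CKO 2 and 70.6% in Control 1. Of all chromosome 6 peaks 41.2% and 34.9% were, unlike any of those around Opn1sw. A relation between background and chromosome was not tested. Peaks around Opn1mw had a median of 25.5 fragments in Bmal1 CKO 2 and 17.5 in Control 1, against 27 in Bmal1 CKO 2 and 26 in Control 1 around Opn1sw. The labels do not give the sex of the mice.

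**Figure D4:**
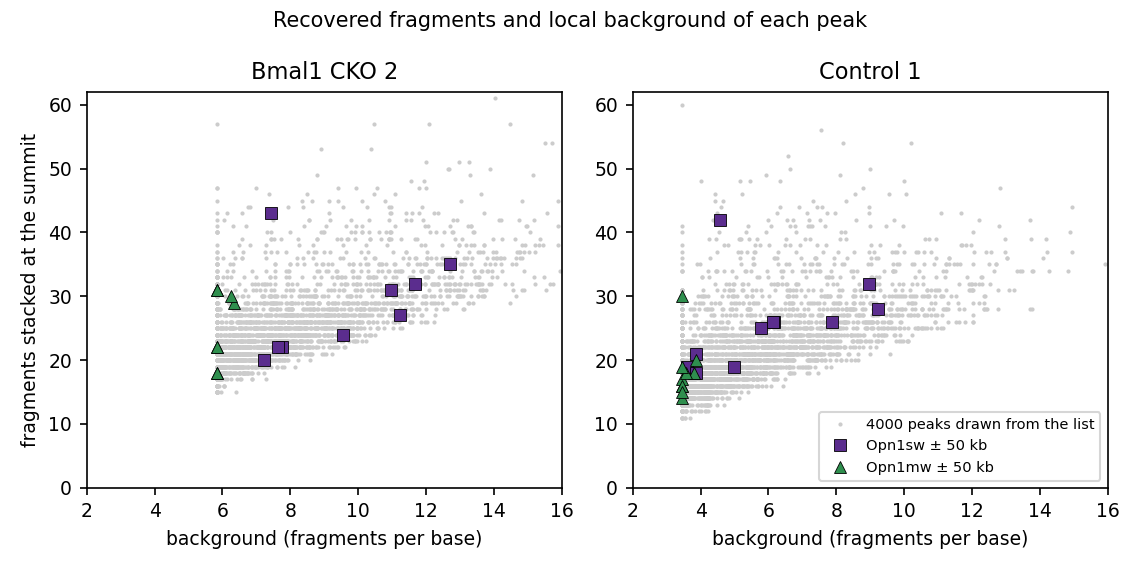
Fragments stacked at the summit (y axis) are plotted against the background in fragments per base (x axis) for the peaks around Opn1sw (squares) and Opn1mw (triangles) over 4000 peaks drawn at random from each list (grey; a few lie beyond the axes), in Bmal1 CKO 2 (left) and Control 1 (right). Peaks around Opn1mw stand at or close to the left edge, the genome-wide background of 5.83 in Bmal1 CKO 2 and 3.46 in Control 1, and those around Opn1sw reach 12.7 and 9.22.

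How the window peaks would stand at the depth of the 4 short lists was examined by scaling. Each window peak was scaled by the ratio of genome-wide backgrounds, as if its enrichment were the same, and set against the lowest −log10 p-value in each short list. Scaled to Bmal1 CKO 3, Control 2 and Control 3, the Calu peak of Control 1 reached 5.73, 6.09 and 7.84, where the lowest listed values were 5.05, 6.76 and 6.20. It was the only peak of either window to reach the level of any of those 3 lists. At unchanged enrichment, the promoter peak of Opn1mw and all others stayed below the lowest listed value in each of those 3 lists. The Calu peak passed that value in Bmal1 CKO 3 and Control 3, yet neither listed it. Why these lists lacked such peaks was not tested. Scaled to Bmal1 CKO 1, all 11 Control 1 peaks around Opn1sw and 8 of 10 around Opn1mw passed its lowest value of 5.45, as did 1 of 9 and 4 of 8 from Bmal1 CKO 2. Bmal1 CKO 1 listed none of them. Its lack of peaks around the opsin genes was shared with most genes, since 4.47% of protein-coding genes had a summit inside or within 50 kb in it. An end peak was carried by 0.315%.

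In the short lists the closest summits lay far from the opsin genes. For Opn1sw all 4 had it at one place inside Smo, the gene of the Hedgehog signal transducer, 0.368 Mb away. The folds were 7.99 in Bmal1 CKO 1, 10.6 in Bmal1 CKO 3, 11.0 in Control 2 and 10.1 in Control 3, with summits from 29748111 to 29748273. Both genotypes thus shared the nearest listed place. The long lists also had a summit close by, at 29748537 in Bmal1 CKO 2 and 29748264 in Control 1. For Opn1mw the distance was 0.828 Mb in Bmal1 CKO 1, 1.10 Mb in Bmal1 CKO 3, 1.10 Mb in Control 2 and 1.51 Mb in Control 3.

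Peak density around the opsin genes was set against that around all protein-coding genes. In the gene and 50 kb either side, Opn1sw had 8.67 summits per 100 kb in Bmal1 CKO 2 and 10.6 in Control 1, where the medians over all protein-coding genes were 6.45 and 9.80. Opn1mw had 6.49 in Bmal1 CKO 2 and 8.11 in Control 1. Of all genes 75.2% stood at or below Opn1sw in Bmal1 CKO 2 and 58.0% in Control 1, and 50.5% and 34.3% at or below Opn1mw. Among genes of the X chromosome, whose medians were 2.84 in Bmal1 CKO 2 and 3.76 in Control 1, 83.3% and 83.0% stood at or below Opn1mw.

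**Figure D5:**
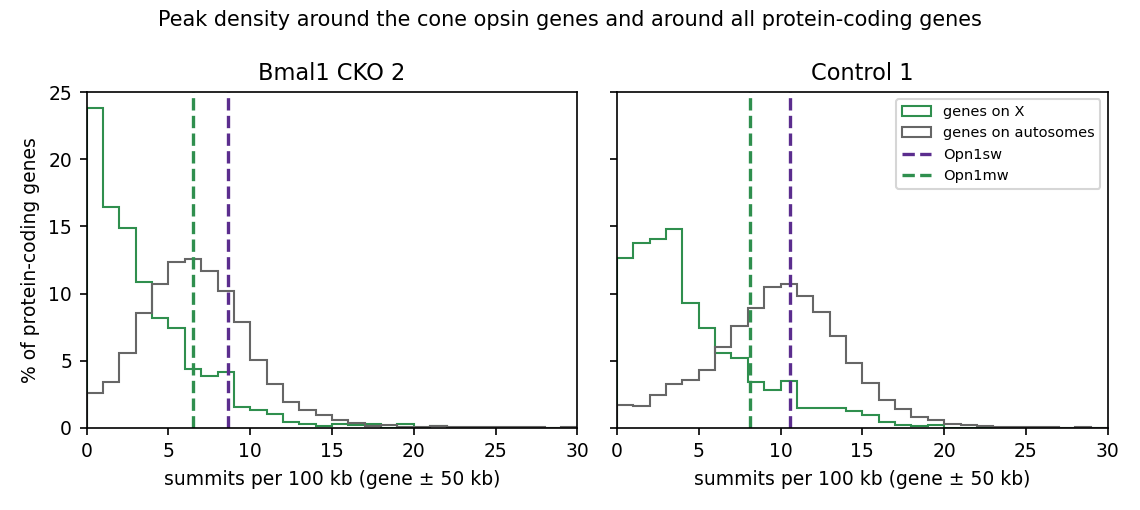
Histograms give the percentage of protein-coding genes by summits per 100 kb in the gene and 50 kb either side, for genes on X (green) and on autosomes (grey), in Bmal1 CKO 2 (left) and Control 1 (right), and dashed lines mark Opn1sw and Opn1mw. Opn1sw (8.67 and 10.6) lies within the bulk of autosomal genes, and Opn1mw (6.49 and 8.11) in the upper part of the genes on X.

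The genes whose density over the 6 libraries was most like that of Opn1sw, by the sum of absolute differences in summits per 100 kb, were Bcl2l10, Mrpl2 and Gm10710, with sums of 0.00742, 0.0219 and 0.0237. Those most like Opn1mw were Kctd14, Antxr2 and Trpm7, with 0.0134, 0.0149 and 0.0184. A sum under 1 was reached by 526 of 21878 genes for Opn1sw and by 521 of 21882 for Opn1mw.

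Other genes of the cone pathway were counted against all genes. Of 13 further cone phototransduction genes, 5 had a summit within 1 kb of a gene end in Bmal1 CKO 2 (38.5%) and 7 in Control 1 (53.8%). All genes had 58.9% and 69.5%. In 4 of the cone genes both lists had one, for which the share of all genes was not counted. Guca1a, which encodes an activator of guanylate cyclase, had folds of 2.22 in Bmal1 CKO 2 and 2.73 in Control 1, and Gnb3, a transducin subunit gene, had 1.97 and 2.65. Rgs9, which encodes the protein that speeds the shut-off of transducin, had 3.21 and 4.28, and the exchanger gene Slc24a2 had 2.58 and 4.53. Arr3, the cone arrestin gene and like Opn1mw on X, had none at an end, with 1 summit within 50 kb in Bmal1 CKO 2 and 6 in Control 1. In the short lists, Pde6h had 1 summit within 50 kb in each of the 4 libraries and Cnga3 had 1 in Bmal1 CKO 1 and 1 in Bmal1 CKO 3, and no other gene of the lists counted here had any.

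Of 13 genes for regulators of opsin expression and photoreceptor fate, 8 had an end peak in Bmal1 CKO 2 (61.5%) and 9 in Control 1 (69.2%). Over all genes these shares were 58.9% and 69.5%. In 7 of the regulator genes both lists had an end peak. The share of all genes with an end peak in both lists, or in 1 list alone, was not counted. Thrb had end folds of 3.39 in Bmal1 CKO 2 and 3.70 in Control 1, and Rorb, an activator of Opn1sw, had 3.59 and 4.18. Crx had an end peak in Bmal1 CKO 2 alone (3.32), and Rora (3.16) and Nr2f2 (3.68) in Control 1 alone. Otx2, Nrl and Nr2e3 had none. Among 6 other opsin genes, Opn3 (3.33 in Bmal1 CKO 2 and 6.04 in Control 1) and Rrh (3.24 and 4.23) had end peaks in both long lists. Opn4, Opn5 and Rgr had none at an end, as was the case for Opn1sw.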

How the data were processed

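BMAL1 ChIP-seq libraries of mouse retina (3 Bmal1 CKO, 3 Control) were compared through the peak list of each. Per the submitters' processing notes, Trim Galore, Bowtie2 and MACS2 were used with build mm10. Versions, parameters and any input: not given in the sources used here. The authors deposited, per peak, the fold enrichment at the summit (a ratio to the local background), the −log10 p-value, the −log10 q-value and a score (the −log10 q-value times 10, without decimals). Peaks were called per library. Libraries were assigned to groups from the sample titles, and lists to libraries by the series record alone, since list names carry other numbers than the titles.

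Summits were read as start plus offset (1-based). Gene positions came from RefSeq (GRCm38.p6) and start sites from its promoter table. Fragments (n) and background (b) were solved from fold = (n + 1)/(b + 1) and a Poisson p-value, which recovered 100% of 2000 simulated pairs. Computation used Python 3.11.15, numpy 2.4.6, pandas 2.3.3 and scipy 1.17.1. Peak numbers were compared between genotypes by an exact permutation test (two-sided, 20 assignments). Described singly are the 3 peaks of highest fold per window and long list. Those within 10 kb of an opsin gene and those that recur are described too. Some peaks that meet these rules, at a neighbouring gene, are left out. The other peaks described were chosen after their values were seen. Members and lists were chosen with earlier results of these data known, and the promoter composition, gene length classes, pseudogenes and depth scaling were added with the data in view. Single results at some neighbouring or listed genes are not reported here. The closing section gives the alternatives.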

Additional observations from a re-analysis of the deposited data

How the results depend on the processing

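The count difference between genotypes (Bmal1 CKO minus Control, −0.667 peaks at each opsin gene) had a permutation p of 0.80 to 1 under all alternatives. With a window of 25 kb it turned to 0.333 at Opn1sw (7 peaks in Bmal1 CKO 2 and 6 in Control 1). The counts themselves were 12 in Bmal1 CKO 2 and 20 in Control 1 at Opn1sw, and 12 and 17 at Opn1mw, with a window of 100 kb, and 1 and 10 at Opn1sw and 6 and 10 at Opn1mw with a fold of at least 3. Without each library in turn it ranged from −3.67 to 3.00 at Opn1sw and from −3.33 to 2.67 at Opn1mw. It was 0.833 at Opn1sw and 0.667 at Opn1mw without Bmal1 CKO 1 or Bmal1 CKO 3. Treating equal replicate numbers as a replicate block left the difference at −0.667 (exact permutation p = 1). Nothing in the labels says that a number pairs animals. The count of 0 in 4 lists makes the permutation test uninformative, with or without the block. The share of Bmal1 CKO 2 peaks that recurred in Control 1 depended on the limits. With only peaks whose −log10 q-value was 3 or more it was 75.0% at Opn1sw and 100% at Opn1mw, and at a fold of at least 3 it was 100% at both (1 peak left at Opn1sw, 6 at Opn1mw). By summits within 100 bp, with all peaks kept, it was 11.1% at Opn1sw (1 of 9) and 25% at Opn1mw (2 of 8). Peak lists give no value below the calling threshold, so a place without a peak is not shown to lack signal.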
